A study of Mus musculus with 40 samples.

Results

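The genes described here were the ligands and receptors of the epidermal growth factor receptor (EGFR, ErbB) family. They were chosen by name, not by a threshold on their values, as 7 ligand genes (Areg, Ereg, Epgn, Hbegf, Tgfa, Btc and Nrg1) and 3 receptor genes (Egfr, Erbb2 and Erbb3), which made 10 of the 45706 genes of the table, each found in 1 row. RNA was sequenced from 40 libraries of sorted mouse cells, 4 in each of 10 groups. Tumors had been induced in Cdx2CreERT2 - Apc fl/fl mice, in which a tamoxifen-activated Cre that is expressed in the colon deletes Apc, by a single intraperitoneal dose of tamoxifen of 25 mg/kg at 8 to 10 weeks of age per the labels, where the methods of the study allow a wider range of ages. Healthy mice were C57Bl6 animals without transgene or tamoxifen, whereas the tumor-bearing mice were of mixed C57Bl6/Sv129 background, so strain, genotype, tamoxifen and tumor cannot be told apart in any comparison of tumor-bearing with healthy mice. From tumors, neutrophils (CD45+ CD11b+ Ly6G+), monocytes (CD45+ CD11b+ Ly6C-high Ly6G-), epithelial cells (CD45- EpCAM+) and stromal cells (CD45- EpCAM-) were sorted, from blood of tumor-bearing and of healthy mice the neutrophils and monocytes, and from healthy colon the epithelial and stromal cells. Per the methods of the study, tissue was minced and digested with enzymes, whereas blood cells were obtained after lysis of red cells. Digestion and tumor location therefore cannot be told apart in any comparison of tumor with blood cells. The titles of 4 blood libraries name 2 animals each, 1 among the neutrophils of tumor-bearing mice and 3 among the monocytes of healthy mice, and the 16 tumor libraries carry only 7 animal names, of which 6 recur in more than 1 library. Tumor and blood neutrophils share 1 animal name, tumor and blood monocytes share 1, and replicate 4 of the healthy epithelial cells shares its own with replicate 4 of the healthy stromal cells.

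Ligands of this family are made as membrane-bound precursors that are released by proteases such as ADAM17, bind EGFR, ErbB3 or ErbB4 on the same or a neighboring cell, and drive receptor pairing. ErbB2 binds no ligand of its own and serves as the preferred partner of the others, while ErbB3 has little kinase activity and signals through its partner. In the colon the pathway acts through RAS and ERK and is known for its part in epithelial renewal, wound repair and tumor growth.

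Library totals ran from 10717873 to 38002939 counts. Levels are given as deposited RPKM (reads per kilobase of transcript, scaled by a library denominator), and differences as log2 fold changes with their standard error (SE) from edgeR's quasi-likelihood fit of the counts. How the authors set this denominator is not given in the sources used here. Over 1267 genes with more than 200 counts in every library, and relative to the median library, it was 0.643 to 1.56 times the library total and 0.718 to 3.01 times the total without mitochondrial genes, so RPKM of different libraries are not on the scale of the count fits. Following the thresholds of the study, a gene counted as called when its Benjamini-Hochberg adjusted p was under 0.05 and its log2 fold change exceeded 1.5 in either direction. Several libraries went against their labels. The summed RPKM of 12 epithelial markers, such as Epcam and Krt8, was 160.9 to 414.9 in tumor epithelial cells, but also 189.1 in replicate 1 of the tumor neutrophils (13.5 to 41.0 in the other 3 replicates), 252.0 and 142.9 in replicates 1 and 2 of the tumor stromal cells (60.5 and 35.3 in replicates 3 and 4) and 38.4 in replicate 2 of the tumor monocytes (1.94 to 14.7 in the other 3). Summed over 6 markers, fibroblast genes such as Col1a1 reached only 5.97 to 24.0 RPKM in tumor stromal cells against 354.7 to 2010.4 in healthy stromal cells, so the libraries labelled tumor stromal cells held little fibroblast RNA. Replicates 3 and 4 of that group instead held 101.6 and 110.1 RPKM of endothelial markers and 1508.2 and 511.0 of neutrophil markers. Replicate 4 of the healthy stromal cells had the most fibroblast markers (2010.4 RPKM) and few endothelial ones (12.1 against 83.3 to 108.2 RPKM in replicates 1 to 3). It also had the most epithelial markers of its group, 25.5 RPKM against 6.44 to 11.8 RPKM in replicates 1 to 3. Replicate 4 of the healthy epithelial cells, with 97.1 RPKM of epithelial markers, stood below the other 3 replicates (319.2 to 491.3). In all these bulk samples fewer cells of a type and less RNA per cell cannot be told apart.

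Areg, Ereg, Epgn and Btc, the genes of amphiregulin, epiregulin, epigen and betacellulin, lie next to each other on chromosome 5 (mm10, chr5:91027464-91402994, 375531 bp), an interval that holds only these 4 protein-coding genes of the GENCODE annotation. The RefSeq windows around the starts of 3 cluster genes (GRCm38.p6, 250 bases before to 50 after the start, coding strand, 5′ to 3′) are shown because the genes share a neighborhood but, as described below, not a pattern. Capitals mark the cyclic AMP response element TGACGTCA, which reads the same on both strands.
Areg (chr5:91139349-91139648, + strand): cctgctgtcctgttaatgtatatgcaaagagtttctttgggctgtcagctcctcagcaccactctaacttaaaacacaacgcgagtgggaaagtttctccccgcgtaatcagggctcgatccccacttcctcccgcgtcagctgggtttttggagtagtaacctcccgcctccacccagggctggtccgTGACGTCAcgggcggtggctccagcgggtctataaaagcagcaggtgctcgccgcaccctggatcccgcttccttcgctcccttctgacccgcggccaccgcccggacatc
Epgn (chr5:91027267-91027566, + strand): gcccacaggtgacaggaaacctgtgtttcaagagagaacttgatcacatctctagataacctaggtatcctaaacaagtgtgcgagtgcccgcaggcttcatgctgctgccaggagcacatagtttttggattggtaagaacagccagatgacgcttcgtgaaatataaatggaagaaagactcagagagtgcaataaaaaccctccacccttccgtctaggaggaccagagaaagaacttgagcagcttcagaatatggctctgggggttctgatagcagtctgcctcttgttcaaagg
Btc (chr5:91402945-91403244, - strand): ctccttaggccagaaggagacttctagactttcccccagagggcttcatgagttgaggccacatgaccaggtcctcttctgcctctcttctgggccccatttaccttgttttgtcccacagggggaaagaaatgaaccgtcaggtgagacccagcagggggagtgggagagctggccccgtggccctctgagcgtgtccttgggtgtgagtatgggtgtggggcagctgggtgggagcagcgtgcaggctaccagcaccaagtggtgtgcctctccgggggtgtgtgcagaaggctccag
The Areg window held 1 such match, from base -61 to base -54 before the start, and none of the windows of the 6 members with an entry (Areg, Epgn, Btc, Tgfa, Egfr and Erbb2) held an AP-1 motif (TGANTCA, palindromic) or a TCF/LEF motif (CTTTGAT, on either strand). Of all 32851 RefSeq windows, 1.79% held the cyclic AMP response element, 7.81% the AP-1 motif and 3.73% the TCF/LEF motif. With 1 match in all, no motif overlapped another, and a match describes letters, not binding.

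The other members are dispersed. Hbegf (heparin-binding EGF-like growth factor) lies on chromosome 18, Tgfa (transforming growth factor alpha) on chromosome 6, Nrg1 (neuregulin 1) on chromosome 8, Egfr and Erbb2 on chromosome 11 and Erbb3 on chromosome 10. Of the members, 4 have an annotated gene on the other strand within their span (Ereg with Gm19610, Nrg1 with Gm26578 and Gm22140, Egfr with Egfros, Erbb2 with Gm25048 and Mien1), and Erbb3 holds Mir6917 on its own strand. Whether the counting used strand is not given in the sources used here, so reads of such pairs cannot be told apart.

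Among the ligands, Nrg1 was the gene of monocytes, while Areg, Hbegf, Tgfa and Btc had their highest means in epithelial cells and Ereg in healthy stroma (plot of the levels in every library). Nrg1, the ligand of ErbB3 and ErbB4, stood at 23.0, 15.4, 20.8 and 18.4 RPKM in the 4 libraries of tumor monocytes (mean 19.4), which was 73.8% of the sum of its 10 group means. The next groups were blood monocytes of tumor-bearing mice (1.90 to 3.13 RPKM), healthy stromal cells (0.288 to 2.78 RPKM) and blood monocytes of healthy mice (0.592 to 2.13 RPKM). Tumor monocytes did not overlap any of these, whereas the 3 groups overlapped their neighbors. Epithelial cells had almost none, with at most 0.152 RPKM in a tumor library and 0.0666 RPKM in a healthy one.

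**Figure D1:**
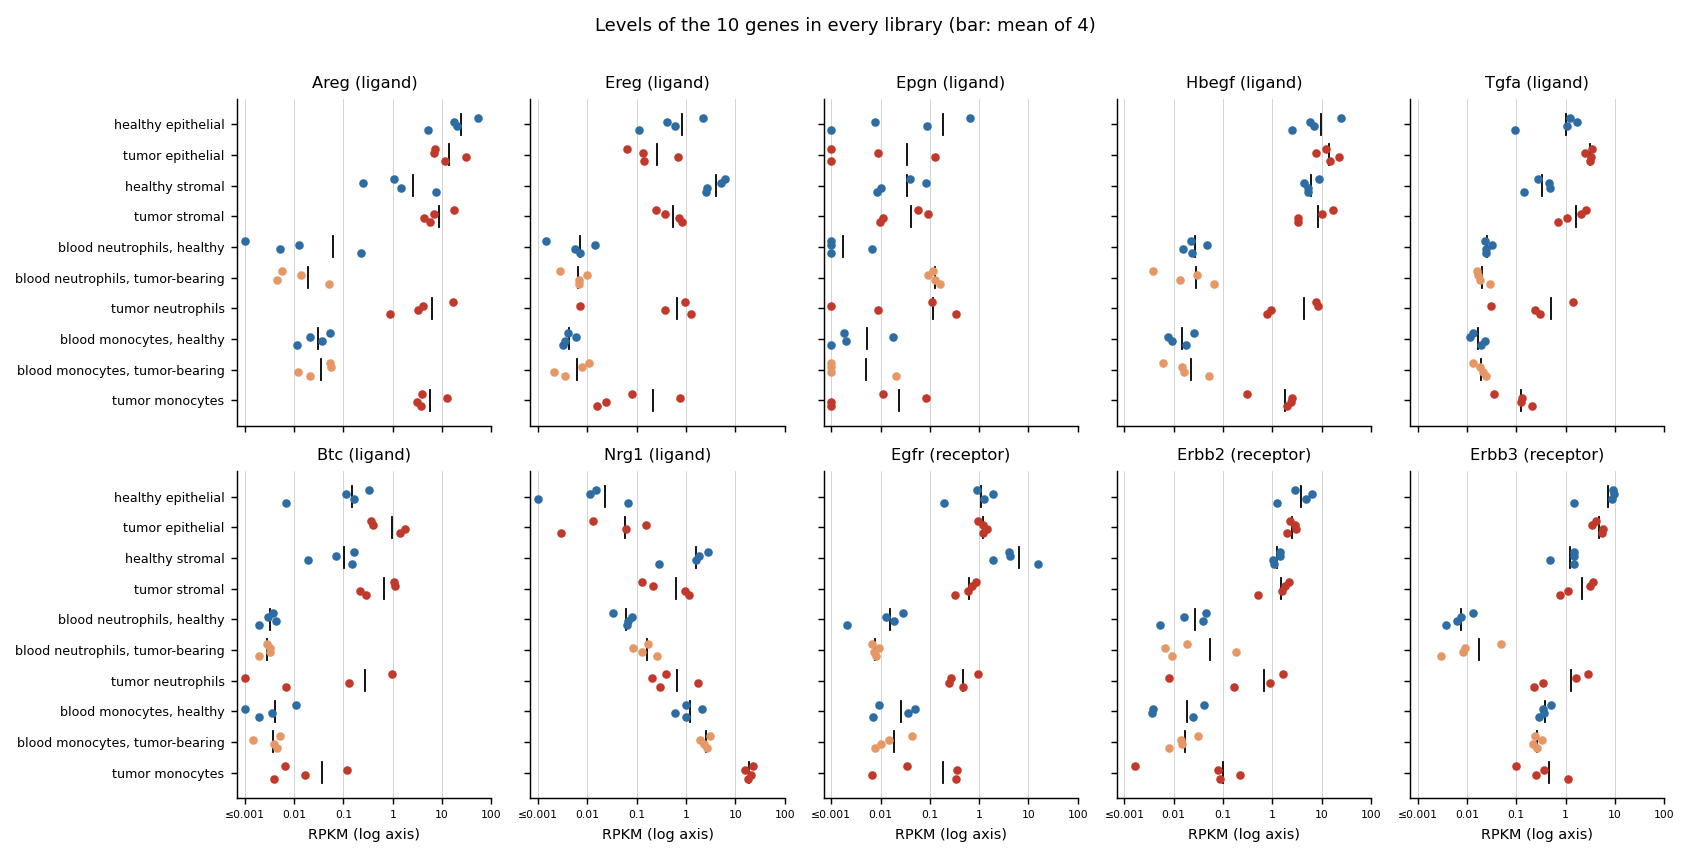
RPKM of each ligand and receptor gene (panels, log axis) in every library of the 10 groups (rows). Points are libraries, vertical bars are means of 4, red marks tumor samples, orange blood of tumor-bearing mice and blue healthy mice, and values at or below 0.001 are drawn at 0.001. Nrg1 is highest in the 4 tumor monocyte libraries (15.4 to 23.0 RPKM), and Areg is below 0.3 RPKM in all blood libraries.

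Areg, which binds EGFR, was highest in healthy epithelial cells at 53.3, 17.5, 19.8 and 5.26 RPKM, followed by tumor epithelial cells at 7.12, 6.93, 30.9 and 11.6 RPKM. Tumor stromal cells (4.20 to 17.4 RPKM), tumor neutrophils (mean 6.27 RPKM, highest in replicate 1, with 4.05, 3.20 and 0.870 RPKM in replicates 2 to 4) and tumor monocytes (3.89, 12.6, 3.04 and 3.65 RPKM) came next, and each group overlapped its neighbor in this order. In the 16 blood libraries Areg reached at most 0.228 RPKM. Hbegf, which binds EGFR and ErbB4, had its highest mean in tumor epithelial cells (12.2, 7.68, 22.3 and 14.6 RPKM), overlapping healthy epithelial cells (2.45 to 24.3 RPKM) and both stromal groups. Tgfa, a ligand of EGFR, was even across tumor epithelial cells (3.46, 2.46, 3.30 and 3.07 RPKM) and lower in healthy ones (1.24, 1.70, 1.08 and 0.0946 RPKM). Btc, which binds EGFR and ErbB4, stayed under 2 RPKM in every library, with 0.355, 0.401, 1.77 and 1.41 RPKM in tumor epithelial cells. Ereg, which also binds EGFR and ErbB4, was highest in healthy stromal cells (6.12, 5.10, 2.61 and 2.59 RPKM), where no library overlapped those of healthy epithelial cells (0.114 to 2.21 RPKM). Epgn was near the limit of detection, at most 0.641 RPKM in 1 healthy epithelial library.

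The 3 receptors divided in another way. Egfr was highest in healthy stromal cells, at 4.05, 4.16, 1.90 and 15.3 RPKM, of which the last is replicate 4. Tumor epithelial cells (0.943 to 1.43 RPKM), healthy epithelial cells (0.195 to 1.90 RPKM) and tumor stromal cells (0.317 to 0.874 RPKM) followed. Erbb2 and Erbb3 were highest in healthy epithelial cells, at means of 3.77 ± 2.20 and 7.23 ± 3.87 RPKM (SD, n = 4), and next in tumor epithelial cells, at 2.53 ± 0.469 and 4.73 ± 1.06 RPKM. Among blood cells, Erbb3 alone of the receptors was above 0.2 RPKM throughout a group, at 0.285 to 0.502 RPKM in monocytes of healthy mice and 0.221 to 0.332 RPKM in monocytes of tumor-bearing mice, against at most 0.0481 RPKM in any blood neutrophil library. Of the other family genes, Erbb4 and Nrg3 never exceeded 0.0152 RPKM, and Egf reached at most 0.340 RPKM, in a healthy epithelial library. Nrg2 had a mean of 2.80 RPKM in healthy stromal and 0.238 RPKM in healthy epithelial cells (edgeR log2 fold change -2.54 ± 0.44 for epithelial minus stromal, adjusted p = 0.00172).

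The first comparison asked how neutrophils in the tumor differed from neutrophils in the blood of tumor-bearing mice. Of 8 members that passed the filter on low counts, 5 were called, all higher in the tumor: Areg, Hbegf, Tgfa, Egfr and Erbb3. Among the 13674 genes tested, 16.3% were called and 11.9% were called higher in the tumor. Areg, Hbegf, Egfr and Erbb3 had few counts in blood and passed the filter through the tumor libraries, so their number is a description. With 10 counts required in every library none of the 5 called members could be tested. Under that filter 1 member was called, Nrg1 (2.07, edgeR adjusted p = 0.0469), beside 17.7% of all genes. The mitochondrial share of the counts moved with this comparison without overlap, at most 16.8% in blood and up to 37.5% in tumor neutrophils, and its part was not tested. Areg differed by 8.17 ± 1.17 (edgeR adjusted p = 0.00139), from 1, 1, 0 and 4 counts in blood to 1141, 297, 243 and 67 in the tumor. Hbegf differed by 7.47 ± 1.21 (edgeR adjusted p = 0.00239), with 7.57 and 8.50 RPKM in replicates 1 and 2 and 0.920 and 0.791 RPKM in replicates 3 and 4. The 2 pairs of tumor libraries were thus far apart, but all lay above the highest blood value of 0.0646 RPKM. Among the receptors, Egfr rose by 5.83 ± 0.65 (edgeR adjusted p = 5.62e-04) to 0.939, 0.266, 0.241 and 0.475 RPKM, and Erbb3 by 6.30 ± 1.15 (edgeR adjusted p = 0.00434) to 2.84, 1.66, 0.352 and 0.230 RPKM. Tgfa rose by 4.41 ± 0.96 (edgeR adjusted p = 0.0101), to 1.45 RPKM in replicate 1 and 0.0314 to 0.302 RPKM in the others. Nrg1 (log2 fold change 2.02 ± 0.83, edgeR adjusted p = 0.117) and Erbb2 (3.44 ± 1.44, edgeR adjusted p = 0.125) were not called, and Ereg and Btc did not pass the filter, though Ereg reached 0.957, 0.373 and 1.25 RPKM in replicates 1, 3 and 4 of the tumor and 0.00725 RPKM in replicate 2. Without replicate 1 of the tumor neutrophils the same 5 members were called, of 8 tested, beside 13.8% of all genes, and Areg differed by 7.37 ± 1.13 (edgeR adjusted p = 0.00386).

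In monocytes, 7 members passed the filter and 4 were called, again all higher in the tumor: Nrg1, Areg, Hbegf and Tgfa, all of them ligands. Of 15280 genes, 11.7% were called and 7.76% were called higher in the tumor. Areg and Hbegf had few counts in blood and passed the filter through the tumor libraries, so the number called is a description. With 10 counts required in every library Areg, Hbegf and Tgfa could not be tested. Under that filter 1 member was called, Nrg1, beside 12.2% of all genes. Nrg1 rose by 3.23 ± 0.26 (edgeR adjusted p = 2.59e-05), and its smallest tumor value, 15.4 RPKM, was well above its largest blood value of 3.13 RPKM. Areg rose by 7.38 ± 0.73 (edgeR adjusted p = 9.52e-05), from at most 0.0569 RPKM in blood to at least 3.04 RPKM in the tumor. Hbegf rose by 6.58 ± 0.91 (edgeR adjusted p = 8.53e-04) to 0.305, 2.55, 2.41 and 1.98 RPKM, and Tgfa by 2.96 ± 0.68 (edgeR adjusted p = 0.0134), remaining at or below 0.211 RPKM. No receptor was called. Egfr missed the threshold (3.45 ± 1.11, edgeR adjusted p = 0.0573), as 2 tumor libraries had 0.350 and 0.337 RPKM and the other 2 had 0.0343 and 0.00680 RPKM, and Erbb3 (1.01 ± 0.64, edgeR adjusted p = 0.312) overlapped between blood and tumor. Without replicate 2 of the tumor monocytes the same 4 members were called, of 7 tested, beside 10.1% of all genes, and Areg rose by 6.75 ± 0.68 (edgeR adjusted p = 2.77e-04). Exact two-sided permutation tests of the RPKM values gave p = 0.0286 for each of these 4 genes in monocytes and for each of the 5 in neutrophils, the smallest value that 4 against 4 libraries allow, and 0.0952 after adjustment over the 130 tests.

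**Figure D2:**
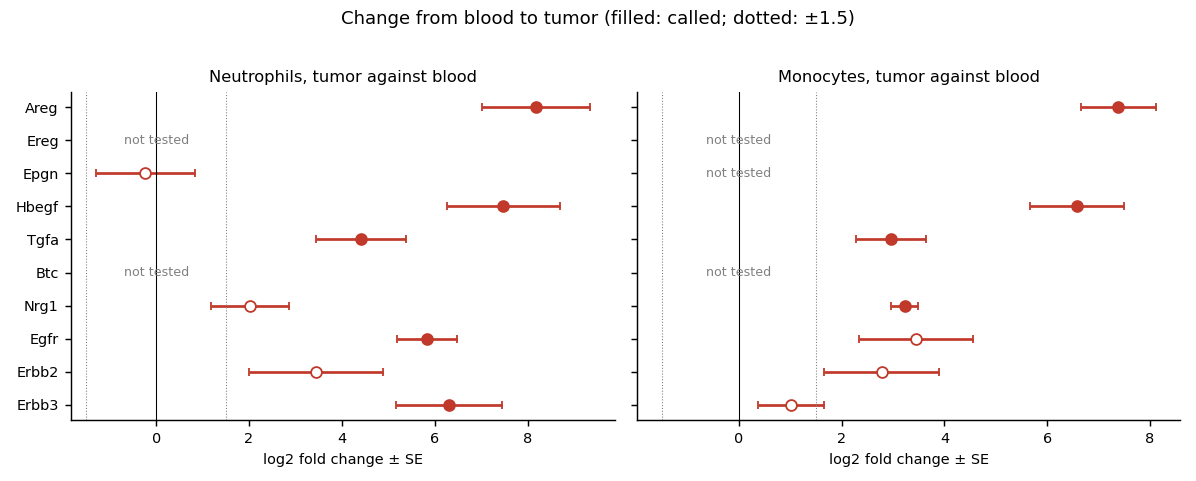
Log2 fold change (tumor minus blood of tumor-bearing mice) with its SE for each gene in neutrophils (left) and monocytes (right). Filled points were called, open points were not, and dotted lines mark ±1.5. In neutrophils 5 genes are filled and in monocytes 4, all to the right of the lines.

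Set against each other, the blood-to-tumor changes of neutrophils and monocytes were unequal for 1 of 9 members tested, at an adjusted p under 0.05 with no fold minimum, a rule by which 3.99% of 17465 genes were called. Erbb3 changed more in neutrophils, by 5.12 ± 1.27 on the log2 scale (edgeR adjusted p = 0.0307). Without replicate 1 of the tumor neutrophils this difference was 4.79 ± 1.32 and no longer passed (edgeR adjusted p = 0.0595), and it was lost in 10 of the 16 fits that left out 1 library. The differences for Areg (0.65 ± 1.26, edgeR adjusted p = 0.818) and Hbegf (0.76 ± 1.48, edgeR adjusted p = 0.820) were smaller than their errors, and that for Nrg1 was -1.32 ± 0.76 (edgeR adjusted p = 0.338).

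Because epithelial markers were present in tumor immune and stromal libraries, each member was set beside them, both as percent of their mean in tumor epithelial cells. In the 4 tumor neutrophil libraries the epithelial marker sum was 73.2%, 15.9%, 15.2% and 5.21%, and Areg was 120.2%, 28.7%, 22.6% and 6.15%, which was 1.18 to 1.81 times the marker percentage. Erbb3 in the same libraries was 60.2%, 35.2%, 7.45% and 4.87%, above the marker percentage in 1 of 4. Tgfa and Btc were likewise above it in 1 of 4, and Hbegf and Erbb2 in 2 of 4. Egfr was above it in 4 of 4, by 1.08 to 7.66 times. The part of epithelial RNA in these levels was not tested. Ereg was 377.1%, 2.86%, 147.2% and 494.2% of its tumor epithelial mean in these libraries, below the marker percentage in replicate 2 and above it in the other 3. In the 4 tumor monocyte libraries the epithelial marker sum was 0.751%, 14.9%, 5.69% and 4.34%, and Areg was 27.5%, 88.9%, 21.5% and 25.8%, or 3.78 to 36.6 times the marker percentage. Nrg1 in tumor monocytes was at least 27195.4% of its tumor epithelial mean. Hbegf in tumor monocytes was 1.20 to 3.23 times the marker percentage, Tgfa 0.284 to 1.58 times (above it in 2 of 4), and Btc was below it in all 4. Fibroblast markers summed to at most 1.64 RPKM in tumor monocytes, and endothelial markers to at most 1.76 RPKM. Macrophage markers summed to 11.1 to 24.5 RPKM in tumor monocytes and to 12.2 to 23.0 RPKM in blood monocytes of tumor-bearing mice. These sums join opposite moves within the list. Adgre1 was 5.38 to 8.74 RPKM in tumor and 11.6 to 17.7 RPKM in blood monocytes, and the rest of the list was higher in the tumor. The part of macrophage RNA in the levels of tumor monocytes was not tested.

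**Figure D3:**
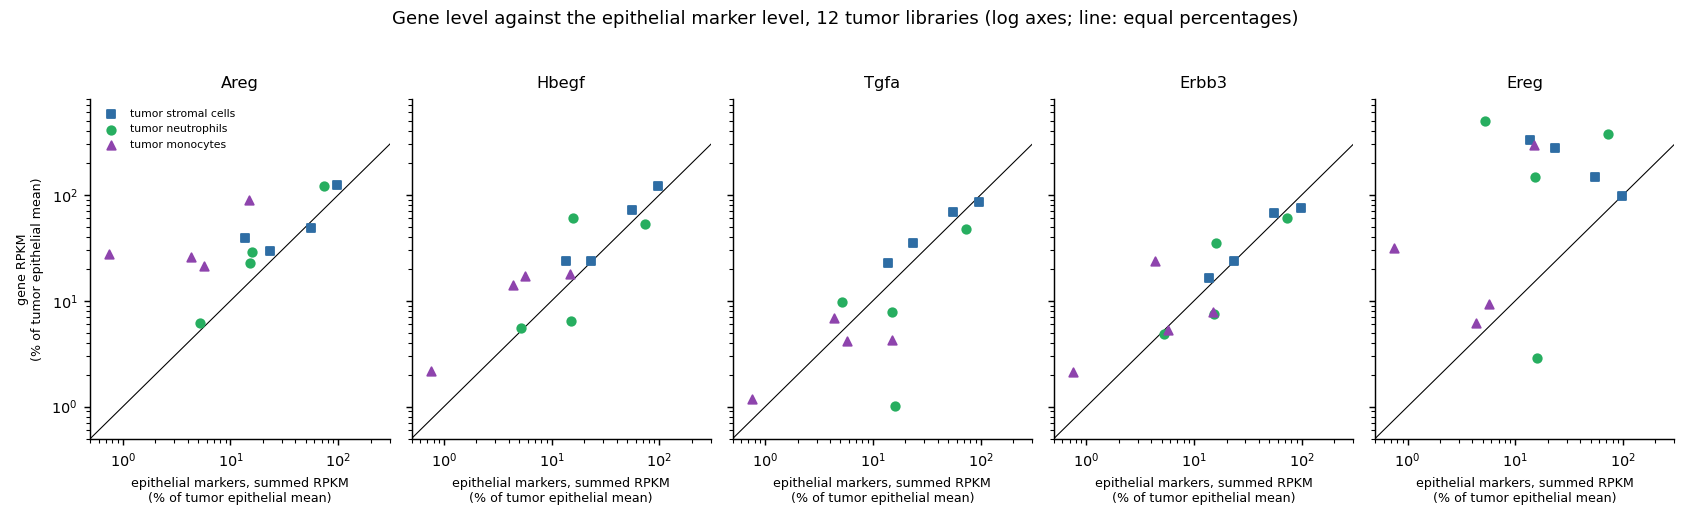
Level of 5 genes (vertical) against the summed level of 12 epithelial markers (horizontal), both as percent of the tumor epithelial mean on log axes, in 12 tumor libraries of stromal cells (squares), neutrophils (circles) and monocytes (triangles). The line marks equal percentages. Areg lies near the line in neutrophils (1.18 to 1.81 times) and above it in monocytes (3.78 to 36.6 times), and Ereg ranges from 2.86% to 494.2% in neutrophils.

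In blood, few members could be tested. Between neutrophils of tumor-bearing and healthy mice 1 of 3 tested members was called, beside 4.01% of 13360 genes: Epgn, higher by 5.52 ± 0.78 (edgeR adjusted p = 0.00420). This rests on 16, 10, 12 and 19 counts in tumor-bearing mice against 0, 0, 1 and 0 in healthy mice, a ratio of 61.1 per total count with a 95% counting interval of 10.5 to 2454.5. Epgn thus passed the filter through the libraries of tumor-bearing mice, so the number called is a description. With 10 counts required in every library no member was left to test. The Epgn levels, 0.0913 to 0.164 RPKM in tumor-bearing mice, were low but did not overlap, and the call was lost in the edgeR fit of all 40 libraries (5.63, adjusted p = 0.105). Summed neutrophil markers moved with it, at 3687.0 to 8467.7 RPKM in healthy and 15241.9 to 19945.5 RPKM in tumor-bearing mice, and their part was not tested. Epgn in tumor neutrophils was 0.110, 0, 0.00868 and 0.338 RPKM. Nrg1 in blood neutrophils was 0.0826 to 0.258 RPKM in tumor-bearing and 0.0339 to 0.0806 RPKM in healthy mice (1.37 ± 0.50, edgeR adjusted p = 0.139). In blood monocytes none of 3 tested members was called, beside 0.209% of 15313 genes, and 1 had an unadjusted p under 0.05: Nrg1, with means of 2.50 and 1.18 RPKM (1.16 ± 0.42, edgeR adjusted p = 0.389). DESeq2 and limma-voom called none either.

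Between tumor and healthy epithelial cells 8 members were tested and 1 was called, beside 15.4% of 16085 genes. Btc was higher in the tumor by 2.16 ± 0.70 (edgeR adjusted p = 0.0494), and its lowest tumor value, 0.355 RPKM, lay just above the highest healthy value, 0.325 RPKM. This call was lost in 7 of the 8 fits that left out 1 library, also without replicate 4 of the healthy cells (1.86 ± 0.66, edgeR adjusted p = 0.0723). Tgfa passed the p threshold but not the fold (1.25 ± 0.36, edgeR adjusted p = 0.0288), with every tumor library above every healthy one. Both receptors with high epithelial levels passed it in the other direction, Erbb3 at -1.10 ± 0.19 (edgeR adjusted p = 0.00233) and Erbb2 at -1.11 ± 0.23 (edgeR adjusted p = 0.00617). In RPKM the ranges of both overlapped. Erbb3 was 8.97, 9.79, 8.68 and 1.47 RPKM in healthy and 4.16, 3.51, 5.64 and 5.59 RPKM in tumor cells. Erbb2 was 2.83, 6.24, 4.77 and 1.23 RPKM in healthy and 2.25, 2.88, 2.97 and 2.02 RPKM in tumor cells. Between these groups the median of all genes stood 0.59 higher on the log2(RPKM + 0.1) scale than in the count fit, and there Erbb3 differed by -0.32 (limma adjusted p = 0.765) and Erbb2 by -0.35 (limma adjusted p = 0.737). Ereg (-2.45 ± 0.80, edgeR adjusted p = 0.0503) and Areg (-1.49 ± 0.51, edgeR adjusted p = 0.0607) missed the threshold. The mitochondrial share of the counts was 48.6% to 83.9% in healthy and 46.3% to 60.5% in tumor epithelial cells, and its part in these values was not tested.

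Between tumor and healthy stromal cells 4 of 9 tested members were called, beside 8.40% of 19081 genes. Egfr fell by 2.99 on the log2 scale (SE 0.69, edgeR adjusted p = 0.0303), from 1.90 to 15.3 RPKM in healthy to 0.317 to 0.874 RPKM in tumor cells, and Ereg fell by 2.58 (SE 0.47, edgeR adjusted p = 0.0136), from at least 2.59 RPKM to at most 0.841 RPKM. Tgfa rose by 2.66 ± 0.56 (edgeR adjusted p = 0.0229) and Btc by 3.12 ± 0.82 (edgeR adjusted p = 0.0470). None of the 4 genes overlapped between groups. Tgfa and Btc were highest in replicates 1 and 2 of the tumor cells, at 2.63 and 2.10 RPKM and at 1.04 and 1.10 RPKM, the 2 libraries with the most epithelial markers. Without both libraries Tgfa differed by 1.66 ± 0.51 (edgeR adjusted p = 0.104), Btc by 1.58 ± 0.77 (edgeR adjusted p = 0.288) and Egfr by -3.55 ± 0.93 (edgeR adjusted p = 0.0693), and 1 member, Ereg, remained called (-2.13 ± 0.48, edgeR adjusted p = 0.0439). Without replicate 4 of the healthy cells Egfr differed by -2.04 ± 0.45 (edgeR adjusted p = 0.0306) and Areg, at 2.06 ± 0.94 with all libraries (edgeR adjusted p = 0.218), was called at 3.64 ± 0.75 (edgeR adjusted p = 0.0248). The mitochondrial share was 15.6% to 24.9% in healthy and 24.8% to 62.9% in tumor stromal cells. Fibroblast markers, which were low in all 4 tumor libraries, moved with the falls of Egfr and Ereg, and the part of either in these values was not tested.

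The 2 changes from healthy to tumor were compared directly, and 3 of 10 members differed at an adjusted p under 0.05, as did 15.1% of 20901 genes. Egfr differed by 2.74 ± 0.73 (edgeR adjusted p = 0.0192, epithelial change minus stromal change), Erbb2 by -1.76 ± 0.51 (edgeR adjusted p = 0.0277) and Erbb3 by -2.30 ± 0.67 (edgeR adjusted p = 0.0290). Areg, whose means went from 24.0 to 14.1 RPKM in epithelial and from 2.61 to 8.52 RPKM in stromal cells, missed the threshold (-3.54 ± 1.16, edgeR adjusted p = 0.0511). Without replicates 1 and 2 of the tumor stromal cells 1 member remained, Egfr at 3.34 ± 0.86 (edgeR adjusted p = 0.0223), while Erbb2 (-1.08 ± 0.48, edgeR adjusted p = 0.172) and Erbb3 (-0.96 ± 0.52, edgeR adjusted p = 0.261) no longer passed. Egfr was lost with limma-voom (adjusted p = 0.0711), the replicate block (edgeR adjusted p = 0.0603) and the edgeR fit of all 40 libraries (adjusted p = 0.0666). Erbb2 and Erbb3 were each lost in 7 of the 16 fits that left out 1 library, Egfr in 0. On the log2(RPKM + 0.1) scale the median of all genes stood 0.85 higher. There Erbb2 differed by -0.48 (limma adjusted p = 0.643) and Erbb3 by -0.95 (limma adjusted p = 0.440).

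**Figure D4:**
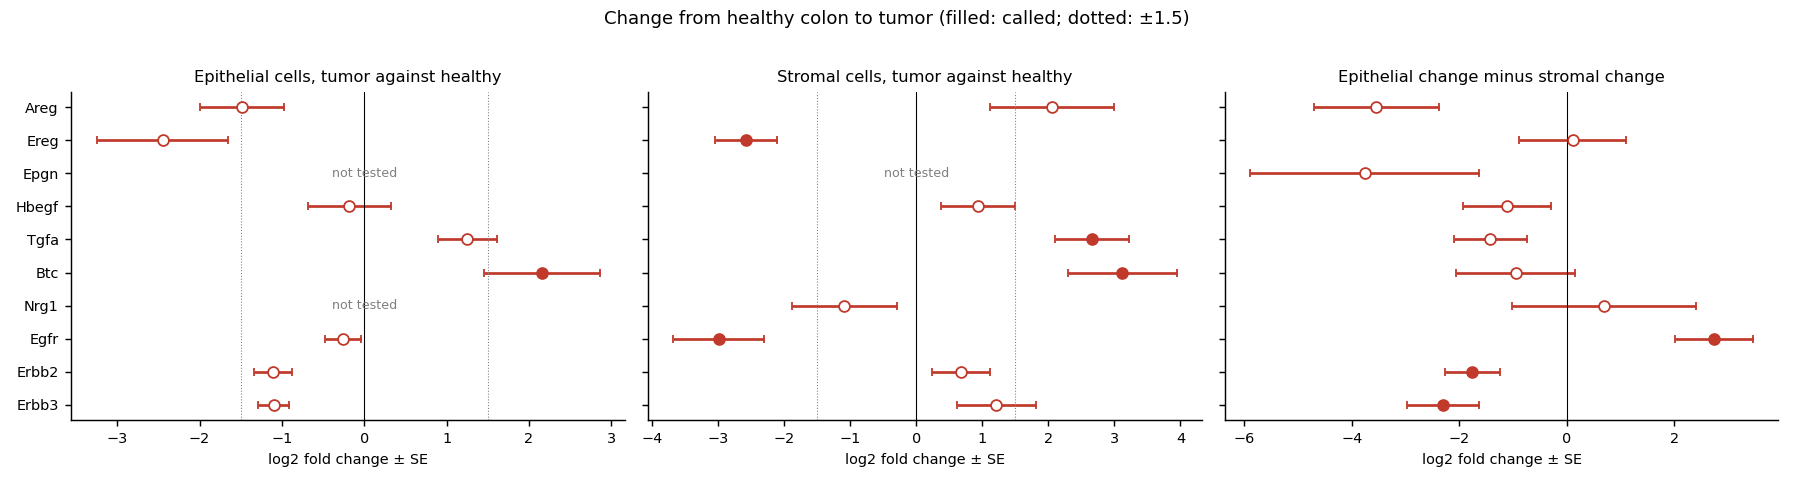
Log2 fold change with its SE for each gene in epithelial cells (left) and stromal cells (middle), tumor minus healthy, and the epithelial change minus the stromal change (right). Filled points were called, and dotted lines mark ±1.5 where a fold minimum applied. Btc alone is filled on the left, and Ereg, Tgfa, Btc and Egfr are filled in the middle.

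In the healthy colon the family was divided between compartments, with 7 of 9 tested members called, beside 30.9% of 18468 genes. The mitochondrial share of the counts moved with this comparison without overlap, at 48.6% to 83.9% in epithelial and 15.6% to 24.9% in stromal cells. Its part was not tested. Epithelial cells had more Areg (4.14 ± 1.00, edgeR adjusted p = 0.00907), Hbegf (1.71 ± 0.55, edgeR adjusted p = 0.0360), Tgfa (2.23 ± 0.52, edgeR adjusted p = 0.00805), Erbb2 (2.46 ± 0.26, edgeR adjusted p = 1.55e-04) and Erbb3 (3.33 ± 0.41, edgeR adjusted p = 3.15e-04). Stromal cells had more Nrg1 (-4.04 ± 1.29, edgeR adjusted p = 0.0336) and Egfr (-1.85 ± 0.58, edgeR adjusted p = 0.0313). The difference in Ereg was not called (-1.43 ± 0.68, edgeR adjusted p = 0.126), although its RPKM did not overlap. On the log2(RPKM + 0.1) scale the median of all genes stood 0.78 lower in this comparison than in the count fit. There Hbegf (0.27, limma adjusted p = 0.759), Tgfa (1.05, limma adjusted p = 0.199) and Erbb2 (1.32, limma adjusted p = 0.0821) lost their calls. Areg, Erbb3, Nrg1 and Egfr kept theirs. Hbegf RPKM overlapped, at 2.45 to 24.3 in epithelial and 4.38 to 8.70 in stromal cells. Replicate 4 of the stromal cells, at 15.3 RPKM, set much of the Egfr difference, which was -0.85 ± 0.34 without it (edgeR adjusted p = 0.0784). Without replicate 2 of the stromal cells 4 members were called, Areg, Tgfa, Erbb2 and Erbb3.

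Within tumors, the 4 cell types were compared in 1 fit of the 16 libraries. Between epithelial cells and monocytes 7 of 10 members were called, beside 29.0% of 19026 genes. Nrg1 had few counts in epithelial cells (2, 20, 11 and 1) and Btc few in monocytes (2, 39, 4 and 1), so the number called is a description. With 10 counts required in every library Nrg1, Btc, Egfr and Erbb2 could not be tested. Under that filter 3 members were called, beside 25.7% of all genes. Epithelial cells had more Tgfa (4.43 ± 0.78, edgeR adjusted p = 6.25e-04), Btc (4.45 ± 1.42, edgeR adjusted p = 0.0248), Hbegf (2.72 ± 0.82, edgeR adjusted p = 0.0191), Egfr (2.56 ± 0.79, edgeR adjusted p = 0.0212), Erbb2 (4.51 ± 1.16, edgeR adjusted p = 0.00799) and Erbb3 (3.18 ± 0.80, edgeR adjusted p = 0.00667). Monocytes had more Nrg1 (-8.52 ± 1.17, edgeR adjusted p = 9.54e-05). Areg was not called between them (0.98 ± 0.67, edgeR adjusted p = 0.286). Its RPKM ranges overlapped in the 2 cell types. With the animal of the title as a block, which some tumor libraries share, Erbb2 (edgeR adjusted p = 0.106) and Btc (edgeR adjusted p = 0.106) lost their calls and 5 members stayed called. Nrg1 was also higher in monocytes than in stromal cells (5.27 ± 1.00, edgeR adjusted p = 0.00220) and than in neutrophils (4.22 ± 0.95 in favor of monocytes, edgeR adjusted p = 0.00881), so that it was called in each of the 3 comparisons of tumor monocytes with another tumor cell type.

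Between tumor monocytes and stromal cells 4 of 10 members were called (20.3% of all genes), Nrg1 higher in monocytes and Tgfa, Btc and Erbb2 lower. Without replicates 1 and 2 of the stromal cells 2 of these remained called, Nrg1 (4.50 ± 1.14, edgeR adjusted p = 0.0175) and Tgfa (-2.54 ± 0.79, edgeR adjusted p = 0.0485). With the animal as a block Nrg1 alone was called, with Tgfa at an edgeR adjusted p of 0.322, Btc at 0.463 and Erbb2 at 0.498, beside 1.75% of all genes. Between epithelial cells and neutrophils 2 were called (21.6% of all genes): Tgfa was higher in epithelial cells (2.15 ± 0.71, edgeR adjusted p = 0.0353) and Nrg1 was lower (-4.30 ± 0.99, edgeR adjusted p = 0.00415). This Tgfa call was lost in 6 of the 8 fits that left out 1 library and with the animal block (edgeR adjusted p = 0.0741). Between neutrophils and monocytes 2 were called (13.8% of all genes), the other being Tgfa (2.29 ± 0.72, edgeR adjusted p = 0.0407), a call lost in 7 of the 8 fits that left out 1 library. Without replicate 1 of the neutrophils this was 1.32 ± 0.64 (edgeR adjusted p = 0.154), and with the animal block it was 1.54 (edgeR adjusted p = 0.321). None was called between epithelial and stromal cells (4.09% of all genes) or between neutrophils and stromal cells (16.1% of all genes). In the first of these 1 member had an unadjusted p under 0.05, Nrg1 (-3.25 ± 0.96, edgeR adjusted p = 0.0714), which was called without replicates 1 and 2 of the stromal cells (-3.99 ± 0.93, edgeR adjusted p = 0.0107), as it was by DESeq2. In the second, 0 had an unadjusted p under 0.05, and DESeq2 and limma-voom called 0.

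Other genes of the pathway were examined as 5 lists. ERK-responsive targets, 7 genes that are transcribed when ERK is active, were called higher in tumor than in blood for 6 of 7 in neutrophils and for 6 of 7 in monocytes, beside 11.9% and 7.76% of all genes in that direction. The median log2 fold change of the list was 4.48 and 2.97, against 0.11 and -0.03 over all genes. Some of these genes were low in blood, with means of 0.0401 RPKM for Myc and 0.0843 RPKM for Etv5 in neutrophils. Etv5 was at 0.0262 RPKM in blood monocytes, while Phlda1 and Fosl1 were above 0.5 RPKM in both. Genes so low in blood may have passed the filter through the tumor libraries, so these numbers are a description. Tumor cells, unlike blood cells, had passed through tissue digestion, which cannot be told apart from tumor location here. ERK activity itself was not measured, and the part of epithelial RNA in these levels was not tested. In neutrophils Myc (6.81 ± 0.72, edgeR adjusted p = 5.62e-04), Fosl1 (5.30 ± 0.77, edgeR adjusted p = 0.00148), Phlda1 (4.69 ± 0.47, edgeR adjusted p = 4.96e-04) and Etv5 (4.48 ± 0.80, edgeR adjusted p = 0.00385) rose most. In monocytes Phlda1 (5.84 ± 0.37, edgeR adjusted p = 7.50e-06), Etv5 (5.53 ± 0.82, edgeR adjusted p = 0.00131), Fosl1 (3.80 ± 0.99, edgeR adjusted p = 0.0249) and Egr1 (2.97 ± 0.58, edgeR adjusted p = 0.00579) rose most. Etv4 was not called in either cell type (1.17 ± 1.00 and -0.67 ± 0.91). Without replicate 1 of the neutrophils or replicate 2 of the monocytes 5 of 7 were called, the cell cycle gene Ccnd1 being lost in both. In epithelial cells Etv5 (2.08 ± 0.27, edgeR adjusted p = 4.16e-04) and Phlda1 (1.75 ± 0.31, edgeR adjusted p = 0.00265) rose, and in stromal cells the early response gene Egr1 fell by 1.70 (SE 0.41, edgeR adjusted p = 0.0354).

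**Figure D5:**
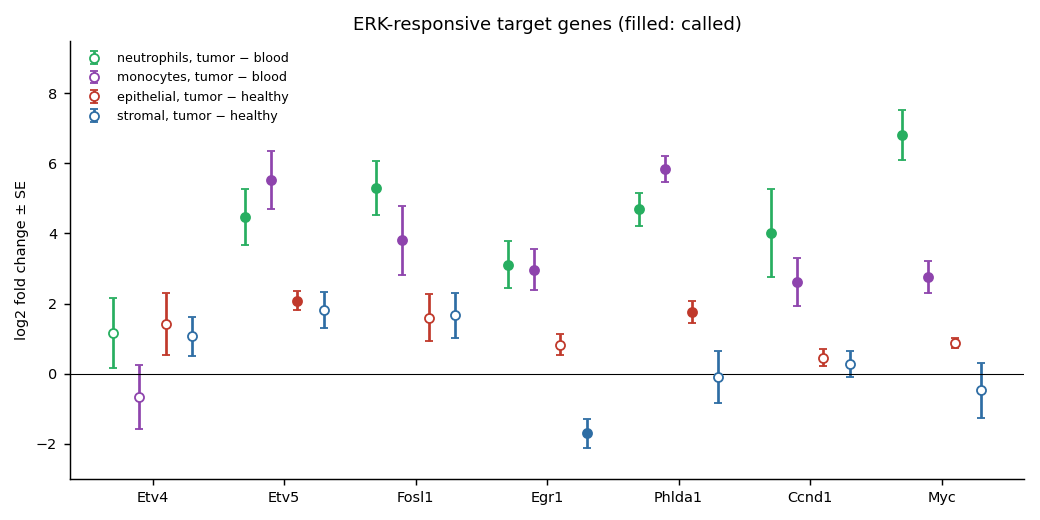
Log2 fold change with its SE for 7 ERK-responsive genes in neutrophils and monocytes (tumor minus blood of tumor-bearing mice) and in epithelial and stromal cells (tumor minus healthy). Filled points were called. In each of the 2 blood-to-tumor comparisons 6 of the 7 genes are filled.

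Among 15 receptor inhibitors and feedback genes, 3 of 12 tested rose in tumor neutrophils and 3 of 14 in tumor monocytes. Here and for the lists that follow, 11.9% and 7.76% of all genes were called higher in the tumor, 15.4% were called in epithelial and 8.40% in stromal cells. Errfi1, a feedback inhibitor that binds the kinase domain of EGFR, rose in both, by 3.34 ± 0.67 in neutrophils (edgeR adjusted p = 0.00666, mean 9.70 RPKM in the tumor) and by 6.42 ± 0.46 in monocytes (edgeR adjusted p = 1.31e-05, mean 43.0 RPKM). The others were Cblb and Spred1 in neutrophils and Spred2 and Spry2 in monocytes. In tumor epithelial cells Dusp4, an ERK phosphatase, rose by 2.37 ± 0.35 (edgeR adjusted p = 8.74e-04) and Lrig3 fell by 2.68 (SE 0.28, edgeR adjusted p = 1.09e-04). Lrig3 also fell in tumor stromal cells, by 1.80 (SE 0.38, edgeR adjusted p = 0.0229). Of 16 adaptors and kinases, 1 was called in each of the 2 blood-to-tumor comparisons, the docking protein gene Gab1, which rose by 4.51 ± 0.73 in neutrophils (edgeR adjusted p = 0.00236) and by 3.08 ± 0.28 in monocytes (edgeR adjusted p = 5.59e-05), and none in the healthy-to-tumor comparisons of epithelial or stromal cells. A count of 1 of 16 is not above the share of all genes in either comparison. Of the 4 genes of ligand shedding, the inactive rhomboid gene Rhbdf1 rose in neutrophils (2.27 ± 0.70, edgeR adjusted p = 0.0443) and none was called in monocytes. In tumor neutrophils Errfi1, Gab1 and Rhbdf1 had means of 9.70, 1.06 and 0.252 RPKM, against 44.1, 4.93 and 1.14 RPKM in tumor epithelial cells. Epithelial markers were present in those neutrophil libraries, and the part of epithelial RNA in these rises was not tested. Adam17, the main sheddase of Areg, Hbegf and Tgfa, had its highest mean in tumor monocytes, 11.6 ± 1.69 RPKM (SD, n = 4), against 1.63 ± 0.555 RPKM in tumor epithelial cells (edgeR log2 fold change -3.06 ± 0.34 for epithelial cells minus monocytes, adjusted p = 1.82e-05). Of the 5 other family members, Nrg2 rose in tumor neutrophils (3.80 ± 0.94, edgeR adjusted p = 0.0193) and Egf was lower in tumor than in healthy epithelial cells (-2.14 ± 0.59, edgeR adjusted p = 0.0259). The mean of Nrg2 was 0.841 RPKM in tumor neutrophils, 0.744 RPKM in tumor epithelial and 0.795 RPKM in tumor stromal cells. The part of RNA from other cells in its rise was not tested.

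Genes whose pattern over the 40 libraries was most like that of each member were ranked by Pearson's r of log2(RPKM + 1) among 4891 other genes. The 40 libraries share cell types and depth, so r is a description only. Areg was most like Krt19 (r = 0.944), Epcam (r = 0.930) and Acsl3 (r = 0.917), and Nrg1 most like Runx3 (r = 0.930), Adap2os (r = 0.924) and Serpinb8 (r = 0.915). Hbegf was most like Fat1 (r = 0.933) and Ereg most like Ghr (r = 0.883). Among receptors, Egfr was most like Sema3c (r = 0.932), Erbb2 like Epb41l3 (r = 0.961) and Erbb3 like Ociad2 (r = 0.956). Epgn and Btc, below 1 RPKM in every group mean, were not ranked.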

How the data were processed

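RNA of sorted cells was amplified with NuGEN Ovation V2 and sequenced on an Illumina HiSeq instrument. Per the submitters' processing notes the authors used bcl2fastq, Bowtie2, limma and mm10, and per the methods of the study HTSstation (its modules for mapping and for RNA-seq), followed by limma and voom. The annotation, strand setting and treatment of reads with several matches are not given in the sources used here. The deposited files hold estimated counts (expected counts, of which 99.6% of nonzero values were not whole) and RPKM made by the authors. Counts were rounded before testing. Gene IDs were named with GENCODE M21 (45143 of 45706 matched). Library totals were 10717873 to 38002939 counts (median 16338416), of which 5.34% to 83.9% were mitochondrial. No 2 replicates of the 60 pairs compared were identical.

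Each comparison was fitted across all genes passing edgeR's filterByExpr with edgeR's quasi-likelihood test (edgeR 4.0.16, limma 3.58.1, R 4.3.3), TMM scaling and Benjamini-Hochberg adjustment. The 6 comparisons among tumor cell types shared 1 fit of 16 libraries, and the 2 differences of changes were tested as interactions without a fold minimum. Single RPKM values were compared by exact permutation (Python 3.11.15, scipy 1.17.1). In simulated data with 200 genes changed by a log2 of 3, 100% were recovered in each of 3 fits (false calls 0, 0 and 6). The changed genes were drawn from well-counted genes, with the same dispersion for all genes. This recovery therefore does not cover genes with few counts, as many members had in blood. Alternatives were DESeq2 1.42.0, limma-voom, limma on log2 RPKM, other filters and scalings, blocks and leaving out libraries. Counting intervals cover counting error only.

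The 10 members and the pathway and marker lists were chosen with earlier results of these data known. Named were all members, up to 4 called genes per pathway list and direction, and the 3 genes most like each member among those with a group mean of at least 5 RPKM. Etv4, Erbb4 and Nrg3 fall outside this rule and were named after their values were seen. The genes most like Tgfa are not reported here. Samples that share an animal are not independent, and where the labels do not give separate animals the p-values measure only the spread between libraries. Of the tumor stromal libraries, 2 are numbered replicate 3 in the labels, and the second was called replicate 4.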

Additional observations from a re-analysis of the deposited data

Results flagged for a closer look

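In 21 of the 100 sets of 4 libraries (10 genes in 10 groups) 1 library lay so far from the other 3 that its gap exceeded Dixon's 95% critical value for 4 samples. Chance flags about 1 in 20 groups, and several of the values rest on few counts.

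Replicate 2 of the tumor monocytes stood above the other 3 for 4 ligands, with Areg at 12.6 RPKM (others 3.04 to 3.89), Ereg at 0.753 RPKM (others 0.0158 to 0.0799), Epgn at 0.0817 RPKM (others at most 0.0114) and Btc at 0.117 RPKM (others 0.00392 to 0.0165). The same library had the most epithelial markers of its group. Replicate 1 of the tumor neutrophils, also the library of its group with the most epithelial markers, had 0.957 RPKM of Btc against at most 0.130 in the others. Replicate 3 of that group had 1.76 RPKM of Nrg1 against 0.201 to 0.397.

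In tissue cells, replicate 4 of the healthy stromal cells was high for Egfr (15.3 RPKM, others 1.90 to 4.16) and Areg (7.68 RPKM, others 0.253 to 1.45), and replicate 3 was low for Erbb3 (0.478 RPKM, others 1.46 to 1.51). Of this group, replicate 4 also had the most epithelial and the most fibroblast markers. Replicate 4 of the healthy epithelial cells was low for Erbb3 (1.47 RPKM, others 8.68 to 9.79) and replicate 1 high for Epgn (0.641 RPKM, others at most 0.0888). Replicate 3 of the tumor epithelial cells was high for Ereg (0.681 RPKM, others 0.0625 to 0.138) and Epgn (0.127 RPKM, others at most 0.00869).

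Among blood neutrophils of healthy mice 1 library was high for Areg (0.228 RPKM, replicate 4), Tgfa (0.0316 RPKM, replicate 2) and Epgn (0.00684 RPKM, replicate 3, from 1 count). Those of tumor-bearing mice had 1 high library for Tgfa (0.0292 RPKM, replicate 4), Erbb2 (0.179 RPKM, replicate 3) and Erbb3 (0.0481 RPKM, replicate 1). In blood monocytes Epgn was 0.0177 RPKM in replicate 2 of the healthy and 0.0202 RPKM in replicate 4 of the tumor-bearing mice, from 2 counts each.

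A test of the difference between 2 changes flagged 4 results. Erbb3 changed from blood to tumor by 5.12 more on the log2 scale in neutrophils than in monocytes (edgeR adjusted p = 0.0307). From healthy colon to tumor the epithelial change minus the stromal change was 2.74 for Egfr (edgeR adjusted p = 0.0192), -1.76 for Erbb2 (edgeR adjusted p = 0.0277) and -2.30 for Erbb3 (edgeR adjusted p = 0.0290). Each of these 4 results was lost under some of the alternatives given above.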

How the results depend on the processing

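All counts here are members called. DESeq2 called 8 between tumor and blood neutrophils (edgeR 5), 2 in epithelial cells (edgeR 1), 1 between tumor epithelial and stromal cells (edgeR 0) and 7 between tumor neutrophils and monocytes (edgeR 2). One edgeR fit of all 40 libraries called 8, 0, 1 and 5 in these 4 comparisons, 0 in blood neutrophils, 2 in stromal cells and 0 for the difference of the epithelial and stromal changes. For the last 3 of these the share of all genes was 1.65%, 10.2% and 12.1%. All genes moved too: of all genes DESeq2 called 15.5%, 11.2%, 4.95% and 12.5% in the first 4 comparisons and the fit of all 40 libraries 27.1%, 11.6%, 7.86% and 18.9%, against 16.3%, 15.4%, 4.09% and 13.8% as reported. With at least 10 counts in every library the count was 1 in tumor against blood neutrophils, 1 in tumor against blood monocytes, 1 between tumor epithelial cells and neutrophils, 3 between tumor epithelial cells and monocytes, 1 between tumor neutrophils and monocytes and 0 for the neutrophil against monocyte change, fewer genes being tested (17.7% of all genes called in neutrophils and 12.2% in monocytes), and no member was left to test in blood neutrophils. In tumor against blood neutrophils this member was Nrg1, which was not called in the reported fit. Under this filter 32.6% of all genes were called between tumor epithelial cells and neutrophils and 25.7% between tumor epithelial cells and monocytes. Between tumor neutrophils and monocytes the share was 15.5%, and for the neutrophil against monocyte change 7.53%. On log2(RPKM + 1), where 4.97% of all genes were called in neutrophils and 3.40% in monocytes, limma called 2 in neutrophils, 2 in monocytes, 0 in blood neutrophils, 0 in epithelial cells, 2 in stromal cells, 4 in healthy epithelial against stromal cells, 1 between tumor neutrophils and monocytes, 1 between tumor monocytes and stromal cells and 1 for the difference of the epithelial and stromal changes. On log2(RPKM + 0.1) it called 0 in blood neutrophils, 2 in epithelial cells, 6 between tumor epithelial cells and neutrophils, 1 between tumor neutrophils and monocytes, 1 between tumor neutrophils and stromal cells, 0 for the neutrophil against monocyte change and 1 for the epithelial against stromal change, and the median of all genes moved by up to 0.85 between this scale and counts. Limma-voom called 4 between tumor epithelial cells and neutrophils and 0 for the neutrophil against monocyte change, beside 31.6% and 3.41% of all genes. Without a count filter 0 were called in epithelial cells and 1 between tumor neutrophils and monocytes, and without the fold minimum 4 in epithelial cells, beside 8.37%, 5.67% and 22.6% of all genes. Without tumor stromal replicates 1 and 2 the counts were 1 in stromal cells, 1 between tumor epithelial and stromal cells, 1 between tumor neutrophils and monocytes, 2 between tumor monocytes and stromal cells and 1 for the epithelial against stromal change. Except where stated, the cause was not tested. DESeq2's size factors within edgeR moved no count past 1.5 times.

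Samples with the same replicate number had correlations of their deviations from the group means of -0.197 to 0.242 over 28 pairs, and in no comparison was every pair above 0.1, so the numbers were not taken to pair the samples. In 2 comparisons 1 of the 4 same-numbered pairs also carries the same animal name (replicate 1 of tumor and blood monocytes, replicate 4 of healthy epithelial and stromal cells). With the replicate block 0 members were called in epithelial cells, 1 between tumor neutrophils and monocytes, 2 between tumor monocytes and stromal cells and 0 for the neutrophil against monocyte change, beside 14.1%, 9.23%, 16.8% and 2.28% of all genes. With the animal of the title as a block, 5 were called between tumor epithelial cells and monocytes, 1 was called between tumor epithelial cells and neutrophils, 1 between tumor neutrophils and monocytes and 1 between tumor monocytes and stromal cells, beside 16.9%, 13.2%, 4.74% and 1.75% of all genes.

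Leaving out 1 library at a time gave 5 to 7 called in neutrophils, 4 to 6 in monocytes, 1 in blood neutrophils, 0 in blood monocytes, 0 to 2 in epithelial cells, 1 to 4 in stromal cells, 4 to 6 in healthy epithelial against stromal cells, 0 to 1 between tumor epithelial and stromal cells, 1 to 2 between tumor epithelial cells and neutrophils, 5 to 7 between tumor epithelial cells and monocytes, 1 to 3 between tumor neutrophils and monocytes, 2 to 5 between tumor monocytes and stromal cells, 0 to 1 between tumor neutrophils and stromal cells, 0 to 2 for the neutrophil against monocyte change and 1 to 4 for the epithelial against stromal change. In the same order, the number of all genes called in these fits was 1638 to 3624, 1509 to 1848, 259 to 604, 4 to 44, 2196 to 2801, 827 to 1761, 5249 to 7014, 285 to 1204, 3216 to 6875, 4572 to 5346, 1629 to 3261, 3128 to 3874, 2387 to 5550, 347 to 1390 and 2530 to 3281. Of the 41 calls, 271 of 360 values with 1 library left out stayed called and 89 did not, and under the other alternatives 343 of 421 stayed called and 78 did not. None of these changed sign. In stromal cells Btc was lost in 6, Egfr in 5 and Tgfa in 3 of 8 such fits, and in healthy colon Nrg1 was lost in 6, Egfr in 5 and Hbegf in 4 of 8. The calls of Areg and Hbegf in neutrophils and of Areg, Hbegf and Nrg1 in monocytes were lost in none of 8.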
